A study of Mus musculus with 12 samples.

Results

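Luminal and basal epithelial cells of the normal mouse mammary gland were compared through the 3 libraries titled WT luminal and the 3 titled WT basal, which are 6 of the 12 RNA sequencing libraries of the series. The libraries were taken by their titles, not by any measured value. WT stands for mice without the transgene; the remaining 6 libraries are luminal and basal cells of MMTVRANK mice, named for the receptor RANK (gene Tnfrsf11a) placed behind the MMTV promoter, which is active in mammary epithelium. Per the labels, glands were dissociated with enzymes, live cells were sorted on the surface proteins CD24 and CD49f, and total RNA went into a stranded kit made for small inputs. No treatment is recorded, and age, strain, parity and the number of animals behind a library are not given in the sources used here. The labels also do not say whether the replicates came from separate animals, so p-values measure only the spread between these libraries. The comparison asks which genes of lineage identity, transcription, secretion, reception, ion and solute transport and metabolism differ between the lineages of an untransformed gland.

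The mammary duct and its alveoli have an inner luminal layer, which lines the lumen and makes milk, and an outer basal layer of contractile myoepithelial cells that rests on the basement membrane. Luminal cells are of several kinds, among them hormone-sensing cells with receptors for estrogen, progesterone and prolactin, and progenitor or alveolar cells marked by Kit and Elf5. Oxytocin makes the basal cells contract and eject milk, and the layers exchange Wnt, Notch, EGF-family and cytokine signals. Basal identity is tied in textbooks to the transcription factors p63 and Slug, and luminal identity to Gata3, Foxa1 and Elf5.

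Expression is given throughout as CPM, read counts scaled to a common library size with TMM factors, with basal replicates 1, 2 and 3 in that order set against luminal replicates 1, 2 and 3 (n = 3 libraries per population). A log2 fold change is luminal minus basal with its standard error, so positive values are higher in luminal cells. A gene was called when its adjusted p by the edgeR quasi-likelihood method, Benjamini-Hochberg adjusted over all 18236 genes tested, was under 0.05. Every adjusted p below is from that test. In bulk populations fewer cells of a type and less RNA per cell cannot be told apart.

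The populations carried the markers of their names. The summed level of 8 basal markers (Krt5, Krt14, Trp63, Acta2, Myh11, Oxtr, Cnn1 and Mylk) was 21080, 23500 and 21200 CPM in the basal and 34.3, 42.9 and 100.8 CPM in the luminal libraries. The 7 luminal markers (Krt8, Krt18, Krt19, Epcam, Cldn3, Cldn4 and Cldn7) summed to 498, 591 and 522 CPM in the basal and 17470, 14720 and 11970 CPM in the luminal libraries. All 15 of these genes were called in the direction of their list. Cd24a and Itga6, which encode the sorted surface proteins, were used by the gate and are no finding here.

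Both WT libraries numbered 2 carry labels that disagree. Their titles and their cell subtype fields name opposite populations, and the marker sums above lie with the titles, which were followed. Tnfrsf11a, the gene the transgene raises, also differed between the WT replicates, with 73.7, 158 and 65.3 CPM in basal and 6.36, 90.8 and 9.91 CPM in luminal libraries (log2 fold change -1.47 ± 0.86). Luminal replicate 2 stood far above the other luminal libraries. The MMTVRANK libraries ran from 129 to 414.5 CPM in basal and from 156 to 319 CPM in luminal cells. The gene was not called (adjusted p 0.206). Without both WT libraries numbered 2 its log2 fold change was -3.08 (adjusted p 0.0032). The counts for each of the 6 gene classes below are therefore also given without those libraries.

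Traces of other cells were measured with lists of their markers. Fibroblast markers summed to 3378, 759 and 422 CPM in basal and 139, 40.6 and 136 CPM in luminal libraries, with all 13 members higher in basal cells and none at 0 counts in either population. Schwann cell markers, which share Sox10 with the basal lineage, summed to 1210, 629 and 562 CPM against 116, 168 and 161 CPM. The 14 endothelial markers summed to 334, 218 and 466 CPM against 158, 225 and 278 CPM, with 12 members higher in basal cells and Vwf higher in luminal cells. Vwf made up most of the luminal sum, and the other 13 summed to 322, 205 and 455 CPM in basal and 65.3, 43.1 and 45.6 CPM in luminal libraries. Pericyte markers summed to 127 to 261 CPM in basal and 220.2 to 270.0 CPM in luminal libraries, with 7 of 8 tested members higher in basal cells. The exception was Notch3, without which the sums were 109 to 232 CPM in basal and 12.3 to 28.3 CPM in luminal libraries. Adipocyte markers stood at 58.3 to 198 CPM in basal and at 0.851 to 7.75 CPM in luminal libraries, nearly all of it Fabp4, and the other 7 summed to at most 4.64 CPM in any library. Both tested members, Fabp4 and Lep, were higher in basal cells. Of the 15 leukocyte markers tested edgeR called 0, with 1 (Cd68) at an unadjusted p under 0.05, voom called 0 and DESeq2 called 1, again Cd68. Basal replicate 1 held the most fibroblast RNA by this measure. Among genes higher in basal cells, it stood at 2 or more times both other basal libraries in 5.44% of all of them, in 1.96% of lineage genes, and in 76.9% of fibroblast markers.

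Of 18236 genes tested, 6940 were called (38.1%), 3284 higher in luminal (18%) and 3656 higher in basal libraries (20.0%). The basal side held the larger differences: past 4-fold there were 2253 basal against 1121 luminal calls, and past 32-fold 943 against 310. Tested against a 2-fold change, 2008 genes were higher in basal (11.0%) and 1173 in luminal cells (6.43%). The WT libraries of the populations did not overlap in 6610 of the 6940 called genes, and in 8405 of all 18236 genes tested (46.1%). Calls were made on the same libraries, so this is no separate support for them. The first principal component of the 6 libraries carried 66.1% of the variance and set the basal libraries, at -128, -130 and -140, apart from the luminal ones at 162, 126 and 110. Total counts lay between 12459547 and 15069578 per library.

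**Figure D1:**
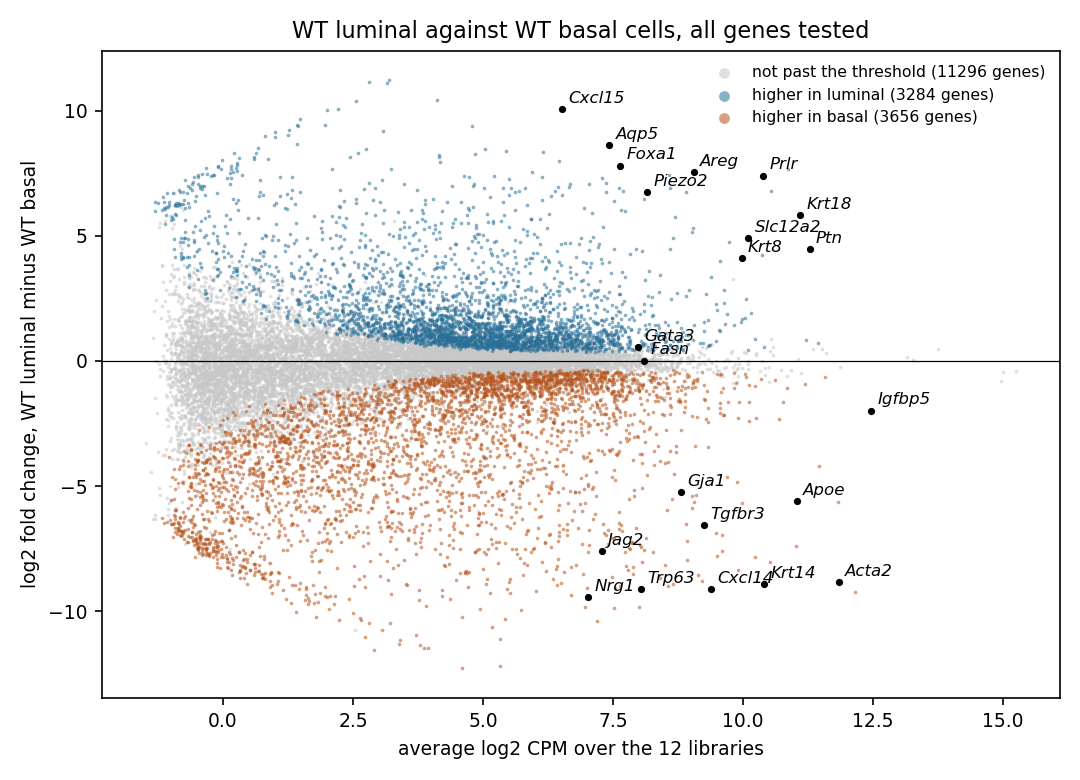
Log2 fold change of WT luminal minus basal libraries (vertical axis) against average log2 CPM (horizontal axis), a dot per gene tested, with called genes coloured by the population where they are higher. Called genes number 3284 above and 3656 below zero, and the basal side reaches farther from zero.

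The genes farthest apart were expressed in basal and all but silent in luminal cells. Lmo1, a LIM-domain transcriptional cofactor (chromosome 7, 109138572 to 109175207, minus strand), stood at 64.7, 38.2 and 32.3 CPM in basal and 0, 0 and 0 CPM in luminal libraries, at least 652-fold higher in basal cells. Hepatocyte growth factor, Hgf, the ligand of the Met receptor, came to 66.5, 45.5 and 100.3 CPM in basal and 0, 0 and 0.0635 CPM in luminal libraries, a basal excess in the ratio of 2990 (95% interval 536 to 118000). Kcnmb1, the smooth-muscle beta subunit of the large-conductance calcium-activated potassium channel, measured 77.1, 71.1 and 63.3 CPM in basal and 0, 0.0709 and 0.0635 CPM in luminal libraries, a basal excess in the ratio of 1530 (95% interval 422 to 12600). In each of these the luminal libraries held at most a couple of reads. Tnfrsf11b, the secreted decoy receptor osteoprotegerin that binds the RANK ligand, lay at 37.9, 50.6 and 29.1 CPM in basal and 0, 0.0709 and 0 CPM in luminal libraries, a basal excess in the ratio of 1720 (95% interval 308 to 67900). The matrix protein gene Spon2 stood at 231, 286 and 161 CPM in basal and 0, 0.142 and 0.318 CPM in luminal libraries (log2 fold change -10.38 ± 0.60). The desmosomal cadherin Dsc3 came to 67.97, 350.0 and 22.2 CPM in basal and 0.15, 0 and 0.254 CPM in luminal libraries (log2 fold change -9.96 ± 1.54), with basal replicate 2 far above the others, and its call was lost with voom (adjusted p 0.092). Further genes with no luminal read were Sh3rf3 (at least 368-fold higher in basal), Ppp2r2b (at least 371-fold), Nkain3 (at least 339-fold), Asxl3 (at least 325-fold), Ntng2 (at least 291-fold), Spock3 (at least 265-fold), Ptchd4 (at least 229-fold) and Them5 (at least 187-fold). These bounds set the luminal count at a floor of 3 reads over the group, and they and the 95% intervals cover counting error only. Adjusted p ran from 4.15e-07 to 0.00154 over the called genes given a fold here.

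On the luminal side the farthest were secretory and membrane genes. Cxcl15, an epithelial chemokine, measured 0.0773, 0.504 and 0.0856 CPM in basal and 443, 170.3 and 157 CPM in luminal libraries (log2 fold change 10.06 ± 0.95). Aqp5, the water channel of glandular apical membranes, lay at 1.16, 1.44 and 0.856 CPM in basal and 899.6, 349 and 134 CPM in luminal libraries (log2 fold change 8.62 ± 1.0). Cxcl17, a mucosal chemokine, stood at 0, 0 and 0.599 CPM in basal and 63.01, 49.02 and 52.2 CPM in luminal libraries (log2 fold change 8.14 ± 0.90), the most even of this set across the luminal libraries. Proc, which encodes the anticoagulant protein C, came to 0, 0 and 0 CPM in basal and 31.8, 23.2 and 9.09 CPM in luminal libraries, at least 266-fold higher in luminal cells. The aspartic protease gene Ctse measured 0, 0 and 0.0856 CPM in basal and 122, 14.5 and 8.13 CPM in luminal libraries, a luminal excess in the ratio of 1740 (95% interval 313 to 69000), a call lost with voom (adjusted p 0.0778). Luminal replicate 1 was the highest of its group for all of these. The potassium-channel regulator Abcc8, the sulfonylurea receptor, went another way within the group, with 0.619, 0.216 and 1.37 CPM in basal and 127, 262 and 159 CPM in luminal libraries (log2 fold change 7.98 ± 0.72). Cntnap2, a neurexin-related adhesion gene, lay at 0, 0.36 and 0.428 CPM in basal and 145, 53.2 and 87.8 CPM in luminal libraries (log2 fold change 8.47 ± 0.98). Grm8, a metabotropic glutamate receptor, stood at 0, 0.072 and 0.342 CPM in basal and 55.6, 35.5 and 34.5 CPM in luminal libraries (log2 fold change 8.22 ± 0.70). Basal libraries held less than 2 CPM of any gene named in this paragraph. The adjusted p-values of these called genes lay between 4.40e-06 and 8.28e-04.

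Lineage lists divided almost wholly by name. Of the 114 lineage genes tested, 51 were higher in basal and 52 in luminal libraries; without WT basal replicate 1 these counts were 50 and 50, and without both WT replicate 2 libraries 47 and 49. Basal keratins and cytoskeletal genes had 7 of 8 tested members higher in basal and 0 higher in luminal libraries, at a median log2 fold change of -5.48. Krt14, the keratin partner of Krt5 in stratified epithelia, came to 2732, 2993 and 3581 CPM in basal and 0.823, 8.16 and 10.2 CPM in luminal libraries (log2 fold change -8.91 ± 1.0). Krt5 itself measured 927, 1879 and 929 CPM in basal and 0.748, 1.70 and 5.91 CPM in luminal libraries (log2 fold change -8.78 ± 0.92). Krt17 lay at 1394, 1551 and 2201 CPM in basal and 1.27, 12.7 and 8.83 CPM in luminal libraries (log2 fold change -7.81 ± 1.05). The luminal traces of all 3 keratins were lowest in luminal replicate 1.

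The contractile apparatus of myoepithelium had 19 of 22 tested members higher in basal and 1 higher in luminal libraries, at a median log2 fold change of -6.20. Acta2, smooth muscle actin, stood at 6879, 6929 and 5911 CPM in basal and 10.2, 9.22 and 23.8 CPM in luminal libraries (log2 fold change -8.83 ± 0.79). Tpm2, a muscle tropomyosin, came to 1659, 1551 and 1242 CPM in basal and 5.46, 8.23 and 9.09 CPM in luminal libraries (log2 fold change -7.61 ± 0.40), while its widely expressed relative Tpm1 measured 1695, 1845 and 1710 CPM in basal and 337, 354 and 292 CPM in luminal libraries (log2 fold change -2.42 ± 0.14). Both tropomyosins were higher in every basal than in every luminal library, Tpm2 by far the more. Tagln lay at 486, 312 and 557 CPM in basal and 1.35, 3.33 and 2.86 CPM in luminal libraries (log2 fold change -7.48 ± 0.40), but 67.9% of its exon length overlaps Pcsk7 and the counting used no strand. Oxtr, the oxytocin receptor through which milk ejection is triggered, stood at 890.1, 429 and 812 CPM in basal and 10.9, 7.38 and 28.2 CPM in luminal libraries (log2 fold change -5.51 ± 1.03). Pde5a, the phosphodiesterase that degrades cGMP, was the member higher in luminal cells, with 25.4, 21.8 and 19.7 CPM in basal and 45.6, 42.2 and 35.6 CPM in luminal libraries (log2 fold change 0.88 ± 0.23), and it was not called without both WT replicate 2 libraries. Among the called genes above, adjusted p was 2.95e-07 at the lowest and 0.0101 at the highest.

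Basement membrane and integrin genes had 23 of 28 tested members higher in basal and 2 higher in luminal libraries, at a median log2 fold change of -3.24. The laminin chain gene Lama1 came to 1033, 1523 and 928 CPM in basal and 5.76, 11.7 and 12.2 CPM in luminal libraries (log2 fold change -6.87 ± 0.51). The collagen-binding integrin Itga1 measured 106, 140.3 and 172 CPM in basal and 0.0748, 0.284 and 0.445 CPM in luminal libraries (log2 fold change -8.94 ± 0.71). The type IV collagen chain Col4a5 lay at 303, 325 and 377 CPM in basal and 44.2, 53.1 and 39.8 CPM in luminal libraries (log2 fold change -2.87 ± 0.19). Luminal cells were higher for Lama5, another laminin alpha chain, with 253, 228 and 337 CPM in basal and 759, 781 and 887 CPM in luminal libraries (log2 fold change 1.57 ± 0.22), and for Itgb6, an epithelial integrin that activates TGF-beta, with 4.41, 12.2 and 7.79 CPM in basal and 15.4, 20.9 and 23.5 CPM in luminal libraries (log2 fold change 1.29 ± 0.36). These calls had adjusted p from 6.36e-07 to 0.0138.

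Luminal keratins and surface markers had 1 of 18 tested members higher in basal and 17 higher in luminal libraries, at a median log2 fold change of 4.58. Krt18 stood at 107, 74.8 and 95.5 CPM in basal and 6047, 5584 and 4204 CPM in luminal libraries (log2 fold change 5.84 ± 0.29) and its partner Krt8 came to 129.8, 165 and 99.3 CPM in basal and 2500, 2391 and 1906 CPM in luminal libraries (log2 fold change 4.11 ± 0.26). Basal libraries kept some RNA of both keratins, and the populations did not overlap. Cldn7, a tight junction claudin, measured 2.55, 3.24 and 2.40 CPM in basal and 149, 148 and 125 CPM in luminal libraries (log2 fold change 5.68 ± 0.30). Itga2, the alpha chain of a collagen-binding integrin, is often used to mark luminal progenitors, and was the member higher in basal libraries, with 53.2, 128 and 91.5 CPM in basal and 7.93, 28.7 and 35.96 CPM in luminal libraries (log2 fold change -1.91 ± 0.60). That call was lost without both WT replicate 2 libraries and in 5 of the fits that left out a WT library or set a 2-fold bar. Across the calls just given, the adjusted p was between 2.45e-07 and 0.0278.

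Hormone-sensing markers had 1 of 21 tested members higher in basal and 18 higher in luminal libraries, at a median log2 fold change of 5.34. Prlr, the prolactin receptor (chromosome 15, 10177238 to 10349180, plus strand), lay at 28.3, 21.8 and 13.9 CPM in basal and 4710, 2578 and 3518 CPM in luminal libraries (log2 fold change 7.40 ± 0.69). Pgr, the progesterone receptor, stood at 26.8, 35.6 and 29.8 CPM in basal and 833, 380.3 and 579.5 CPM in luminal libraries (log2 fold change 4.28 ± 0.57). Esr1, the estrogen receptor alpha, came to 33.5, 10.2 and 16.2 CPM in basal and 352, 249 and 311 CPM in luminal libraries (log2 fold change 3.93 ± 0.54). The steroid receptors were also detected in each basal library, and the populations did not overlap. Wfdc2, a secreted protease inhibitor, measured 5.26, 1.95 and 6.42 CPM in basal and 724, 442 and 358 CPM in luminal libraries (log2 fold change 6.81 ± 0.66). Tph1, which takes the first step from tryptophan to serotonin and is induced by prolactin, lay at 2.40, 0.576 and 7.53 CPM in basal and 358, 425 and 596 CPM in luminal libraries (log2 fold change 7.06 ± 0.79). Cbr2, a carbonyl reductase, went the other way with 73.9, 61.1 and 48.8 CPM in basal and 15.9, 12.8 and 27.5 CPM in luminal libraries (log2 fold change -1.71 ± 0.43), and its call was lost without both WT replicate 2 libraries. For these genes, called ones only, adjusted p spanned 1.46e-05 to 0.00793.

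Progenitor and alveolar markers had 1 of 21 tested members higher in basal and 17 higher in luminal libraries, at a median log2 fold change of 4.44. Kit, the stem cell factor receptor, stood at 7.73, 10.3 and 7.79 CPM in basal and 82.4, 118 and 221 CPM in luminal libraries (log2 fold change 4.03 ± 0.43). Elf5, the ETS factor of alveolar differentiation, came to 2.86, 0.576 and 1.37 CPM in basal and 60.6, 66.8 and 98.2 CPM in luminal libraries (log2 fold change 5.55 ± 0.80). Aldh1a3, a retinaldehyde dehydrogenase of luminal progenitors, measured 4.87, 1.44 and 1.88 CPM in basal and 7.63, 21 and 34.6 CPM in luminal libraries (log2 fold change 2.94 ± 0.62). For all 3 the order within the luminal group was replicate 1 lowest and replicate 3 highest. Lalba, the milk protein alpha-lactalbumin, lay at 0, 0.288 and 0.685 CPM in basal and 31.5, 34.5 and 64.4 CPM in luminal libraries (log2 fold change 7.06 ± 0.77). Btn1a1, butyrophilin of the milk fat globule, stood at 5.64, 1.01 and 2.14 CPM in basal and 229, 146 and 382 CPM in luminal libraries (log2 fold change 6.43 ± 0.61). Lcn2, lipocalin 2, which binds iron-carrying siderophores, was the member higher in basal cells, with 1687, 1050 and 2413 CPM in basal and 363, 424 and 841 CPM in luminal libraries (log2 fold change -1.66 ± 0.35). The calls here carried adjusted p of 1.82e-05 to 0.00297.

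The luminal libraries differed in the balance of these lists. Of the 18 hormone-sensing genes higher in luminal cells, 14 were highest in luminal replicate 1, and of the 17 progenitor and alveolar genes, 13 were highest in luminal replicate 3. Over all 3284 genes higher in luminal cells, replicate 1 was highest in 58.1% and replicate 3 in 17.4%. The sum of Esr1, Pgr, Prlr and Foxa1 was 6529, 3555 and 4729 CPM in luminal replicates 1, 2 and 3, and that of Kit, Elf5 and Aldh1a3 was 151, 206 and 354 CPM. The share of counts from mitochondrially encoded genes was 2.22% in luminal replicate 1 and 7.92% and 7.97% in the others, and its part in this pattern was not tested.

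**Figure D2:**
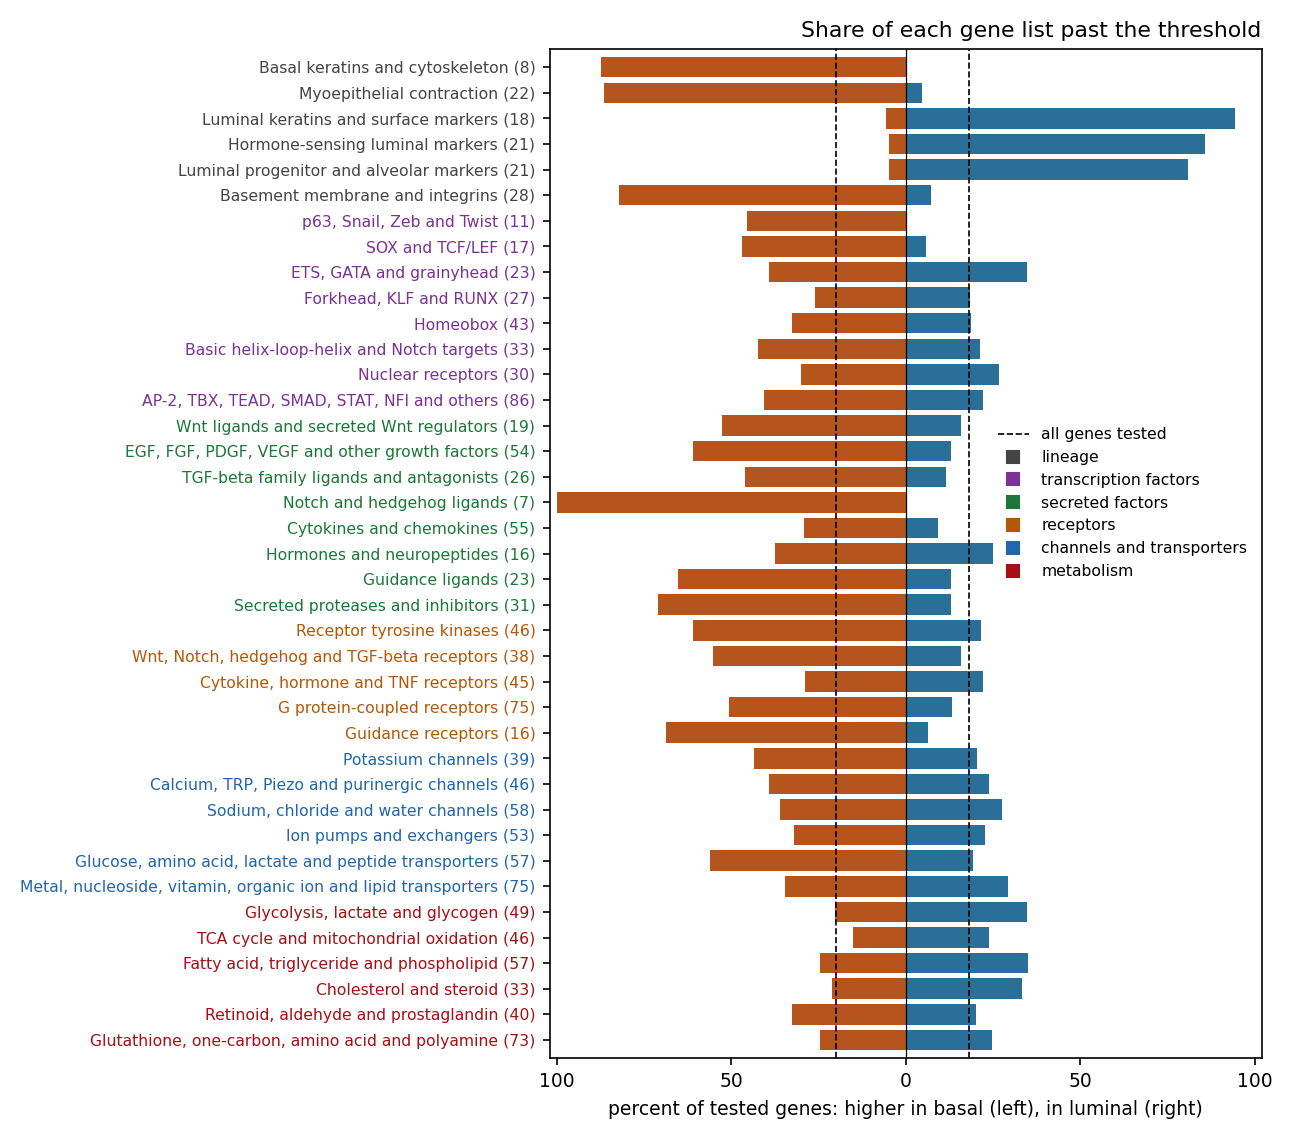
Percent of tested members called higher in basal (bars to the left) and in luminal libraries (bars to the right) for each gene list, with the number tested in parentheses and dashed lines at the shares over all genes tested (20.0% and 18%). Secreted factor and receptor lists extend to the basal side, and the metabolic lists reach to both sides.

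Among the remaining classes, metabolic genes had more luminal than basal calls and the others more basal ones. Higher in basal against higher in luminal libraries were 101 and 56 of 270 transcription factors tested, 121 and 29 of 231 secreted factors, 108 and 37 of 217 receptors, 131 and 80 of 328 channels and transporters, and 69 and 85 of 298 metabolic genes. All tested members passed a filter on low counts, which left 114 of 115 lineage genes in the table, 270 of 320 transcription factors, 231 of 298 secreted factors, 217 of 257 receptors, 328 of 400 channels and transporters and 298 of 330 metabolic genes. Set beside 20.0% and 18% of all genes tested, the basal share was 52.4% for secreted factors and 49.8% for receptors, and the luminal share was 28.5% for metabolic genes. Median log2 fold changes were -1.99 for secreted factors, -1.25 for receptors, -0.83 for channels and transporters, -0.74 for transcription factors and 0.00 for metabolic genes, with -0.07 over all genes tested. Tested against a 2-fold change, the basal and luminal counts were 60 and 34 for transcription factors, 92 and 22 for secreted factors, 79 and 21 for receptors, 87 and 54 for channels and transporters, and 36 and 42 for metabolic genes.

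The transcription factors p63 and Slug, of textbook basal identity, were both basal here. Without WT basal replicate 1, 90 members were higher in basal and 54 in luminal libraries, and without both WT replicate 2 libraries 83 and 53. Trp63, which encodes p63, the master regulator of stratified and basal epithelia (chromosome 16, 25683763 to 25892102, plus strand), came to 497, 548 and 350.0 CPM in basal and 0.299, 1.21 and 0.953 CPM in luminal libraries (log2 fold change -9.12 ± 0.60). Snai2, which encodes the repressor Slug (chromosome 16, 14705852 to 14709385, plus strand), measured 68.05, 121 and 34.2 CPM in basal and 0.374, 0.497 and 0.318 CPM in luminal libraries (log2 fold change -7.53 ± 0.69), with basal replicate 2 the highest. Trp73, the p53-family relative p73, lay at 11.2, 11.6 and 6.33 CPM in basal and 0.15, 0.0709 and 0 CPM in luminal libraries, a basal excess in the ratio of 142 (95% interval 48.2 to 692). In the list of p63, Snail, Zeb and Twist factors there were 5 of 11 tested members higher in basal and 0 higher in luminal libraries, at a median log2 fold change of -2.77. That is 45.5% called, against 38.1% of all genes tested. The calls of Zeb1 and Twist1, mesenchymal repressors, were lost without WT basal replicate 1, as well as without both WT replicate 2 libraries, and leave 3. Zeb1 stood at 19.9, 4.18 and 14.6 CPM in basal and 0.225, 1.06 and 4.32 CPM in luminal libraries and Twist1 at 5.34, 1.51 and 0.0856 CPM in basal and 0.225, 0 and 0 CPM in luminal libraries, highest in the basal library with the most fibroblast RNA. Whether fibroblasts carry these was not tested. Adjusted p ran from 1.39e-06 to 4.11e-05 over the called genes given a fold here.

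The basic helix-loop-helix list had 14 of 33 tested members higher in basal and 7 higher in luminal libraries, at a median log2 fold change of -0.76. Id4, an inhibitor of helix-loop-helix factors linked to mammary stem cells, stood at 292, 381 and 398 CPM in basal and 0.748, 0.426 and 2.03 CPM in luminal libraries (log2 fold change -8.34 ± 0.61). Myc came to 366, 403 and 396 CPM in basal and 54.03, 62.8 and 88.2 CPM in luminal libraries (log2 fold change -2.51 ± 0.20) and its relative Mycl measured 2.09, 4.97 and 1.63 CPM in basal and 94.5, 25.04 and 28.1 CPM in luminal libraries (log2 fold change 4.07 ± 0.73). Within the Myc family the members were thus called in opposite directions. Hes1, the best-known Notch target, lay at 56.8, 17.4 and 41.2 CPM in basal and 249, 148 and 163 CPM in luminal libraries (log2 fold change 2.28 ± 0.41). Hes6 stood at 4.02, 2.88 and 1.03 CPM in basal and 26.04, 15.7 and 17.2 CPM in luminal libraries (log2 fold change 2.88 ± 0.46). Both Hes genes were higher in luminal cells, while the Notch ligands described below were higher in basal cells. Of the same list, Hey1, Hey2 and Heyl were not called, and Rbpj was higher in basal cells (log2 fold change -1.08 ± 0.26). Notch signalling itself was not tested. The adjusted p-values of these called genes lay between 2.57e-06 and 0.00611.

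SOX and TCF/LEF genes had 8 of 17 tested members higher in basal and 1 higher in luminal libraries, at a median log2 fold change of -2.14. Sox9, a factor of luminal progenitors and ducts, was the luminal member, with 324, 585 and 315 CPM in basal and 1603, 1570 and 1376 CPM in luminal libraries (log2 fold change 1.89 ± 0.24). Sox10, known from neural crest and myoepithelium, came to 286, 232 and 261 CPM in basal and 56.4, 73 and 82.5 CPM in luminal libraries (log2 fold change -1.88 ± 0.23). Sox5, Sox7, Sox11, Sox17 and Sox18 were also higher in basal cells, Sox11 by at least 108-fold with no luminal read. Sox7, Sox17 and Sox18 are known from endothelium, whose 13 markers other than Vwf summed to 205 to 455 CPM in basal and 43.1 to 65.3 CPM in luminal libraries, with 12 of them higher in basal cells. The part of endothelial cells here was not tested. Tcf7, a transcriptional effector of Wnt signalling, measured 68.7, 122 and 57.9 CPM in basal and 10.2, 11.6 and 6.04 CPM in luminal libraries (log2 fold change -3.16 ± 0.33). The related repressor Tcf7l1 lay at 119, 121 and 99.8 CPM in basal and 7.56, 12.2 and 10.04 CPM in luminal libraries (log2 fold change -3.51 ± 0.39). Among the called genes above, adjusted p was 1.91e-05 at the lowest and 7.33e-05 at the highest.

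ETS, GATA and grainyhead factors had 9 of 23 tested members higher in basal and 8 higher in luminal libraries, at a median log2 fold change of -0.30. Elf3, an epithelial ETS factor, stood at 25.9, 13.6 and 25.6 CPM in basal and 175, 208 and 190.0 CPM in luminal libraries (log2 fold change 3.14 ± 0.22). Elf1 came to 135, 131 and 108 CPM in basal and 333, 333 and 272 CPM in luminal libraries (log2 fold change 1.33 ± 0.20). Elf5, above, was higher in luminal cells as well, and Elf4 was higher in basal cells. Etv5, a target and effector of FGF signalling, measured 147, 194 and 95.2 CPM in basal and 18.2, 14.5 and 21.7 CPM in luminal libraries (log2 fold change -3.0 ± 0.28). Ets1 lay at 108, 134 and 122 CPM in basal and 20.3, 24.1 and 20.8 CPM in luminal libraries (log2 fold change -2.49 ± 0.33). Trps1, an atypical GATA-type repressor, stood at 236, 278 and 333 CPM in basal and 1475, 1175 and 1546 CPM in luminal libraries (log2 fold change 2.31 ± 0.17). Gata3, the factor named in textbooks for luminal identity, was not called, with 243, 174 and 242 CPM in basal and 460.3, 258 and 249 CPM in luminal libraries (log2 fold change 0.55 ± 0.25). Its luminal libraries all lay above the basal ones, yet luminal replicates 2 and 3 exceeded the highest basal library only narrowly. With the replicate number as a block its adjusted p was 0.0449 at a log2 fold change of 0.52. These calls had adjusted p from 1.15e-06 to 2.91e-04.

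Forkhead, KLF and RUNX genes had 7 of 27 tested members higher in basal and 5 higher in luminal libraries, at a median log2 fold change of -0.46. That is 44.4% called, near the 38.1% of all genes tested. Foxa1, a pioneer factor that opens chromatin for the estrogen receptor (chromosome 12, 57540628 to 57546916, minus strand), came to 1.24, 3.17 and 1.37 CPM in basal and 634, 348 and 321 CPM in luminal libraries (log2 fold change 7.80 ± 0.54). Klf6 measured 344, 791 and 324 CPM in basal and 2009, 1461 and 1370 CPM in luminal libraries (log2 fold change 1.73 ± 0.36). Foxn3, a forkhead repressor, lay at 274, 284 and 300.4 CPM in basal and 55.1, 67.1 and 68.1 CPM in luminal libraries (log2 fold change -2.17 ± 0.19). Foxo1, which insulin signalling keeps out of the nucleus, stood at 183, 124 and 136 CPM in basal and 40.8, 50.7 and 71.4 CPM in luminal libraries (log2 fold change -1.44 ± 0.22). Foxp4 and Foxp1 were called in opposite directions, with 137, 142 and 148 CPM in basal and 216, 259 and 211 CPM in luminal libraries (log2 fold change 0.68 ± 0.13) for Foxp4 and 306, 374 and 356 CPM in basal and 167, 188 and 177 CPM in luminal libraries (log2 fold change -0.96 ± 0.16) for Foxp1. Runx1 was not called, with 776, 807 and 1172 CPM in basal and 718, 613 and 668 CPM in luminal libraries (log2 fold change -0.46 ± 0.21), although all its luminal libraries lay below the basal ones. Across the calls just given, the adjusted p was between 1.69e-06 and 0.00235.

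Homeobox genes had 14 of 43 tested members higher in basal and 8 higher in luminal libraries, at a median log2 fold change of -1.06, 9 of the basal calls standing without both WT replicate 2 libraries. Irx4 came to 194, 136 and 157 CPM in basal and 0.15, 0.142 and 1.14 CPM in luminal libraries (log2 fold change -8.32 ± 0.71), whereas its relative Irx3 measured 55.2, 73.5 and 28.3 CPM in basal and 150.3, 95.3 and 95.8 CPM in luminal libraries, higher in luminal cells. Msx2, a target of BMP signalling, lay at 0, 0.072 and 1.88 CPM in basal and 67.5, 51.6 and 35.7 CPM in luminal libraries (log2 fold change 6.35 ± 0.97), whereas Msx1 stood at 10.6, 1.66 and 1.88 CPM in basal and 0.449, 1.28 and 0.635 CPM in luminal libraries, higher in basal cells. Within both pairs the members were thus called in opposite directions. Basal libraries still held Irx3 at 28.3 CPM or more, and Msx1 was at most 1.88 CPM outside basal replicate 1. The TALE homeobox gene Meis1 came to 12.8, 15.1 and 12.8 CPM in basal and 77.1, 72.6 and 79.3 CPM in luminal libraries (log2 fold change 2.49 ± 0.30). Pbx3, of the same class, measured 17.6, 16.6 and 14.6 CPM in basal and 1.57, 2.48 and 1.52 CPM in luminal libraries (log2 fold change -3.12 ± 0.38). For these genes, called ones only, adjusted p spanned 9.04e-06 to 4.40e-04.

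Nuclear receptors had 9 of 30 tested members higher in basal and 8 higher in luminal libraries, at a median log2 fold change of 0.10. Beside Esr1 and Pgr, the orphan receptors Esrrb and Esrrg were higher in luminal cells, with 0.0773, 0 and 1.20 CPM in basal and 100.3, 44.5 and 60.99 CPM in luminal libraries (log2 fold change 7.39 ± 0.91) for Esrrb and 1.70, 3.17 and 1.71 CPM in basal and 36.6, 35.9 and 26.6 CPM in luminal libraries (log2 fold change 3.90 ± 0.45) for Esrrg. Nr4a2, an immediate early orphan receptor, lay at 239.9, 329 and 272 CPM in basal and 8.16, 6.24 and 9.59 CPM in luminal libraries (log2 fold change -5.13 ± 0.33), and Nr4a1 and Nr4a3 were also higher in basal cells. The glucocorticoid receptor gene Nr3c1 stood at 136, 154 and 114 CPM in basal and 34.8, 36.7 and 41.9 CPM in luminal libraries (log2 fold change -1.83 ± 0.21). The calls here carried adjusted p of 6.63e-07 to 1.01e-04.

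The remaining transcription factors (AP-2, TBX, TEAD, SMAD, STAT, NFI and others) had 35 of 86 tested members higher in basal and 19 higher in luminal libraries, at a median log2 fold change of -0.73. Tfap2c, an AP-2 factor, came to 354, 289.5 and 265 CPM in basal and 31.96, 27.9 and 36.2 CPM in luminal libraries (log2 fold change -3.24 ± 0.38). The TEAD factors, which carry YAP and TAZ to DNA, divided, with 335, 504 and 459.7 CPM in basal and 42.4, 70.8 and 72.05 CPM in luminal libraries (log2 fold change -2.81 ± 0.29) for Tead1 and 17.8, 17.9 and 15.8 CPM in basal and 190.2, 130.1 and 115 CPM in luminal libraries (log2 fold change 3.08 ± 0.25) for Tead2. Tbx2 measured 52.8, 53.9 and 46.04 CPM in basal and 0, 0.355 and 0.0635 CPM in luminal libraries (log2 fold change -8.43 ± 0.60), against 67.97, 33.5 and 70.6 CPM in basal and 227, 177 and 178 CPM in luminal libraries for Tbx3, the mammary placode gene, which was higher in luminal cells. Such opposite members occurred in several families, and each pair was read in the same libraries. Myb lay at 2.71, 4.18 and 1.97 CPM in basal and 224, 78.7 and 157 CPM in luminal libraries (log2 fold change 5.68 ± 0.43) and the HMG-box gene Tox3 stood at 0.387, 0.504 and 0.856 CPM in basal and 46.7, 35.7 and 29.9 CPM in luminal libraries (log2 fold change 6.0 ± 0.50). Nfix, a nuclear factor I member, came to 1351, 1613 and 1457 CPM in basal and 253, 302 and 361 CPM in luminal libraries (log2 fold change -2.27 ± 0.23). Adjusted p ran from 1.15e-06 to 5.08e-05 over the called genes given a fold here.

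Between genes, levels were compared per kilobase of exon. Among the transcription factors listed, the highest mean level in luminal libraries was that of the stress gene Atf3, at 838 ± 314 CPM per kb, followed by Klf6 at 367 ± 78.7, Sox9 at 367 ± 29.6 and Cited1, a coactivator of estrogen-responsive genes, at 245 ± 41.7 CPM per kb. The spread of Klf6 covers the level of Sox9, so that their order is not settled. In basal libraries Cebpb stood at 378 ± 79.8, Nr4a1 at 351 ± 111, Atf3 at 262 ± 33.3, Nfix at 200.5 ± 17.9 and Myc at 143 ± 7.34 CPM per kb. Cebpb and Nr4a1 overlapped in range. Foxa1 held rank 8 in luminal and Id4 rank 14 in basal cells.

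**Figure D3:**
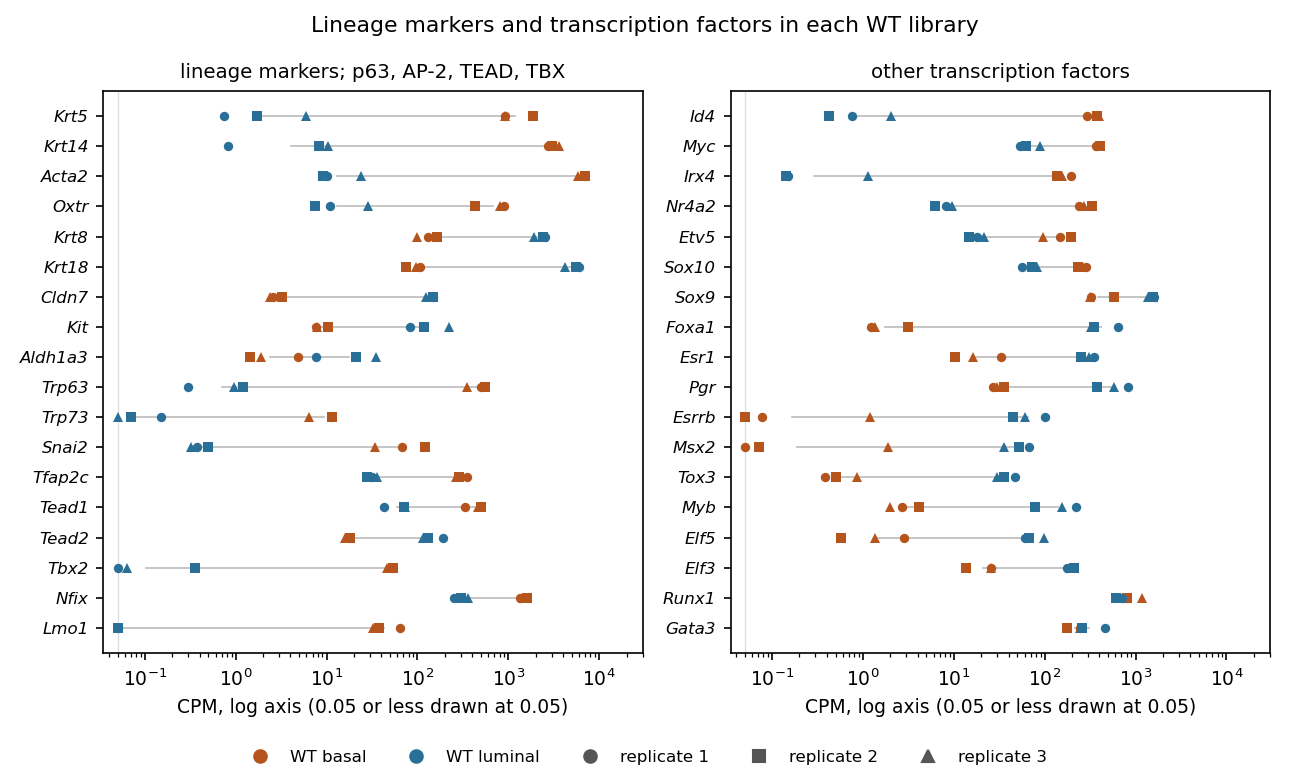
CPM of lineage marker and transcription factor genes in each WT library on a log axis, basal in orange and luminal in blue. A circle, square and triangle mark replicates 1, 2 and 3. Values of 0.05 or less are drawn at 0.05, and grey lines join the geometric means. Trp63, Snai2, Id4 and Tbx2 lie far to the right in basal libraries, Foxa1, Elf5, Msx2 and Esrrb in luminal libraries, and the symbols of Gata3 and Runx1 lie close together.

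Slug and the Zeb factors are known to bind the E-box CAGGTG in the promoters of epithelial genes. Promoter sequence was therefore set beside the expression of luminal genes. A window from 250 bases before to 50 bases after the RefSeq start (build GRCm38.p6) was searched on both strands, where CACCTG is the same site read from the other strand. Among 10720 tested genes with a window, 22.1% held the E-box, as did 22.6% of all 27025 genes with one. The share was 26.4% for genes higher in luminal and 21.6% for genes higher in basal cells. For genes past the 2-fold test it was 35.5% (262 of 738) for luminal and 23.4% (286 of 1224) for basal genes. The order held within each of 3 bins of promoter GC content, at 30.8% against 23.2% in the lowest, 41.3% against 28.0% in the middle and 34.1% against 20.5% in the highest bin. Lists differed in either direction. Among genes higher in luminal cells the window held an E-box in 9 of 12 luminal keratin and surface genes, 9 of 15 hormone-sensing genes and 4 of 10 progenitor and alveolar genes, but in 0 of 7 homeobox genes and 0 of 9 genes of the glutathione and amino acid list. Among genes higher in basal cells it did so in 4 of 15 contractile genes and 3 of 17 basement membrane genes, but in 5 of 7 genes of the TGF-beta family list. The E-box was 1 of 13 motifs searched, all picked with the expression results known. The ETS core GGAAGT was in 33.6% of the promoters of genes higher in luminal and 24.8% of those higher in basal cells. Its share was 30.8% over all genes tested. Past the 2-fold test the shares were 30.5% for luminal and 20.7% for basal genes.

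The 120 bases before the RefSeq start are printed for 7 luminal genes of differing roles that hold the E-box. They are a keratin, a claudin, a receptor, a pair of transcription factors and a pair of ligands. Oxtr, a basal gene that also holds the E-box, is printed too. Capitals mark the E-box, all sequences read 5′ to 3′ on the strand of the gene, and positions are on build GRCm38.p6.
Krt8: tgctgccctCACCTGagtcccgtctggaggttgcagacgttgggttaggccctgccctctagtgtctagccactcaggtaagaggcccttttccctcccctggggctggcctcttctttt
Cldn7: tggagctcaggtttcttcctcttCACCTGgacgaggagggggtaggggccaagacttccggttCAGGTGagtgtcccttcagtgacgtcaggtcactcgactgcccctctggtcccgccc
Elf5: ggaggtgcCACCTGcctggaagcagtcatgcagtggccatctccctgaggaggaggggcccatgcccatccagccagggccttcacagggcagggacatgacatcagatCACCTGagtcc
Prlr: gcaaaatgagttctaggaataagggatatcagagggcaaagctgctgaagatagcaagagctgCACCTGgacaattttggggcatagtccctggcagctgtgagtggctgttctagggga
Foxa1: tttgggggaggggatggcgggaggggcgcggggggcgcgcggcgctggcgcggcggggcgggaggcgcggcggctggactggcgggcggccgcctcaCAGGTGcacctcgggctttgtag
Areg: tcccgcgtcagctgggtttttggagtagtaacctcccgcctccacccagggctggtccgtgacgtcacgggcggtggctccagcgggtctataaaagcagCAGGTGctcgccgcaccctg
Wnt4: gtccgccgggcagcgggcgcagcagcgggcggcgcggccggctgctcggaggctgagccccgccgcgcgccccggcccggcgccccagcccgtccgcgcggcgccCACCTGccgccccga
Oxtr: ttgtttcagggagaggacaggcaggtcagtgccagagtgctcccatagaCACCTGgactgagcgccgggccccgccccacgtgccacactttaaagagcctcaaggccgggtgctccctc
The stretches lie at chr15:102004343-102004462 (Krt8, minus strand), chr11:69965301-69965420 (Cldn7, plus strand), chr2:103411978-103412097 (Elf5, plus strand), chr15:10223786-10223905 (Prlr, plus strand), chr12:57546112-57546231 (Foxa1, minus strand), chr5:91139479-91139598 (Areg, plus strand), chr4:137277515-137277634 (Wnt4, plus strand) and chr6:112489826-112489945 (Oxtr, minus strand). The Elf5 and Cldn7 stretches hold 2 E-boxes and the others 1. An E-box of Elf5, Wnt4, Areg and Foxa1 lies within 23 bases of the RefSeq start. That start need not be the outer end of the counted gene. The Prlr stretch lies inside the counted span of 10177238 to 10349180, and the Foxa1 stretch inside that of 57540628 to 57546916. The stretches of Krt8, Cldn7, Wnt4 and Oxtr also overlap their counted spans. A match is a description of the letters, and binding was not measured.

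Secreted factors had the largest basal share of the 6 classes. Without WT basal replicate 1, 110 members were higher in basal and 27 in luminal libraries, and without both WT replicate 2 libraries 101 and 25. Fibroblast markers were also higher in basal libraries, and their part in these counts was not tested. Basal replicate 1 stood at 2 or more times both other basal libraries for 9.92% of the secreted genes higher in basal cells, against 5.44% of all such genes and 76.9% of fibroblast markers. Wnt ligands and secreted Wnt regulators had 10 of 19 tested members higher in basal and 3 higher in luminal libraries, at a median log2 fold change of -3.08. Wnt4, the progesterone-induced Wnt, measured 12.3, 15.7 and 1.97 CPM in basal and 382, 214 and 319 CPM in luminal libraries (log2 fold change 4.93 ± 0.62). Wnt7b lay at 4.79, 11.02 and 4.02 CPM in basal and 88.2, 77.4 and 54.7 CPM in luminal libraries (log2 fold change 3.47 ± 0.36). On the basal side Wnt10a stood at 37.6, 36.01 and 59.3 CPM in basal and 0.15, 0 and 0.0635 CPM in luminal libraries, a basal excess in the ratio of 628 (95% interval 214 to 3050), and Wnt6, Wnt9a and Wnt11 were higher too. The secreted inhibitor Wif1 came to 248, 642 and 338 CPM in basal and 0.599, 0.355 and 0.381 CPM in luminal libraries (log2 fold change -9.83 ± 0.67). Dkk3, of the Dickkopf family, measured 197, 137 and 209.7 CPM in basal and 3.07, 4.68 and 6.48 CPM in luminal libraries (log2 fold change -5.25 ± 0.42). The libraries of each population thus held Wnt ligands of their own, and the inhibitors named here were basal. Of the 10 members higher in basal cells, 3 (30.0%) stood in basal replicate 1 at 2 or more times both other basal libraries. The adjusted p-values of these called genes lay between 1.37e-06 and 1.15e-04.

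Growth factors had 33 of 54 tested members higher in basal and 7 higher in luminal libraries, at a median log2 fold change of -2.14. Areg, amphiregulin, the EGF-family ligand that relays estrogen, lay at 0.464, 13.6 and 7.27 CPM in basal and 2183, 900.4 and 880.1 CPM in luminal libraries (log2 fold change 7.53 ± 1.01). Btc, betacellulin, of the same family, stood at 0, 0 and 0.342 CPM in basal and 40.9, 14.7 and 15.3 CPM in luminal libraries (log2 fold change 7.68 ± 1.16). The neuregulin Nrg1, a ligand of Erbb3 and Erbb4, came to 141, 394 and 153 CPM in basal and 0.15, 0.213 and 0.572 CPM in luminal libraries (log2 fold change -9.44 ± 0.68). Areg and Btc, ligands of Egfr, were thus higher in luminal and Nrg1, the ligand of Erbb3, in basal cells. Ereg, another ligand of Egfr, went with Nrg1, with 3.79, 37.02 and 14.7 CPM in basal and 0.15, 1.06 and 0.0635 CPM in luminal libraries, and Hbegf, Tgfa, Egf and Epgn were not called. Ptn, pleiotrophin, measured 274, 446 and 161 CPM in basal and 9402, 5365 and 4825 CPM in luminal libraries (log2 fold change 4.47 ± 0.48). Igfbp3, which binds insulin-like growth factors, lay at 354, 395 and 382 CPM in basal and 0.524, 1.14 and 1.40 CPM in luminal libraries (log2 fold change -8.50 ± 0.55). Igfbp7 stood at 161, 74.3 and 175 CPM in basal and 4.79, 4.04 and 6.29 CPM in luminal libraries (log2 fold change -4.76 ± 0.35). Igfbp5, the involution-associated binding protein, was abundant in both, with 8131, 5615 and 12220 CPM in basal and 1377, 1184 and 3979 CPM in luminal libraries (log2 fold change -1.99 ± 0.53). Csf1, the macrophage growth factor, came to 133, 187 and 288 CPM in basal and 7.78, 47.7 and 45.1 CPM in luminal libraries (log2 fold change -2.59 ± 0.71). Without WT luminal replicate 1 the call of Igfbp5 was lost. The neurotrophin Ntf3 was at least 87.1-fold higher in basal cells, with no luminal read. Among the called genes above, adjusted p was 1.12e-06 at the lowest and 0.0143 at the highest.

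TGF-beta family ligands and antagonists had 12 of 26 tested members higher in basal and 3 higher in luminal libraries, at a median log2 fold change of -1.27. Inhbb, an activin beta chain, measured 21.2, 4.83 and 4.54 CPM in basal and 316, 214 and 282 CPM in luminal libraries (log2 fold change 4.73 ± 0.55). The activin-binding protein follistatin, Fst, lay at 293, 451 and 543 CPM in basal and 0.599, 4.82 and 2.99 CPM in luminal libraries (log2 fold change -7.25 ± 0.71). Inhbb and Fst thus stood on opposite sides. Inhba, another activin beta chain, was not called and its libraries overlapped. It had 6.03, 18.15 and 15.4 CPM in basal and 11.9, 12.8 and 9.85 CPM in luminal libraries (log2 fold change -0.20 ± 0.37). Bmp3 stood at 1.00, 5.55 and 0.941 CPM in basal and 161, 42.99 and 98.9 CPM in luminal libraries (log2 fold change 5.31 ± 0.83) and Bmp7 came to 155, 202 and 164 CPM in basal and 3.59, 5.32 and 1.33 CPM in luminal libraries (log2 fold change -5.67 ± 0.49). Tgfb1 measured 31.6, 18.01 and 24.2 CPM in basal and 65.6, 68.6 and 42.2 CPM in luminal libraries (log2 fold change 1.26 ± 0.28). Ltbp4, which holds latent TGF-beta in the matrix, lay at 239, 148 and 156 CPM in basal and 2.62, 3.69 and 9.15 CPM in luminal libraries (log2 fold change -5.12 ± 0.44). These calls had adjusted p from 6.85e-06 to 0.00347.

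Notch and hedgehog ligands had 7 of 7 tested members higher in basal and 0 higher in luminal libraries, at a median log2 fold change of -7.07. With genes that had no luminal read set at their bound the median is -4.51. Dll1 stood at 344, 277 and 317 CPM in basal and 2.69, 0.355 and 3.88 CPM in luminal libraries (log2 fold change -7.07 ± 0.71), with 20.5% of its exon length overlapping A930024N18Rik. Jag2 came to 317, 346 and 242 CPM in basal and 1.65, 1.92 and 1.08 CPM in luminal libraries (log2 fold change -7.61 ± 0.48). Jag1 measured 198, 306 and 254 CPM in basal and 120.0, 87.7 and 87.6 CPM in luminal libraries (log2 fold change -1.36 ± 0.26). Jag1 kept 87.6 CPM or more in every luminal library, while Dll1 and Jag2 were at most 3.88 CPM there. Dlk2, a non-canonical ligand, lay at 30.8, 31.3 and 17.8 CPM in basal and 0, 0.426 and 0.0635 CPM in luminal libraries (log2 fold change -7.28 ± 0.66). Across the calls just given, the adjusted p was between 8.61e-07 and 0.00123.

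Cytokines and chemokines had 16 of 55 tested members higher in basal and 5 higher in luminal libraries, at a median log2 fold change of -0.59, with 10 basal calls without both WT replicate 2 libraries. Over all genes tested 38.1% were called, 20.0% higher in basal and 18% in luminal libraries. Cxcl14 stood at 1574, 1053 and 1944 CPM in basal and 0.524, 0.78 and 6.80 CPM in luminal libraries (log2 fold change -9.11 ± 1.05). Cxcl12, the ligand of Cxcr4, came to 231, 202 and 252 CPM in basal and 2.69, 0.851 and 4.70 CPM in luminal libraries (log2 fold change -6.36 ± 0.57). The monocyte attractant Ccl2 measured 34.4, 41.05 and 83.5 CPM in basal and 0.225, 0.355 and 0.191 CPM in luminal libraries (log2 fold change -7.65 ± 1.17). None of these 3 chemokines passed 7 CPM in a luminal library. Il6 lay at 14.8, 8.86 and 35.8 CPM in basal and 0.225, 0 and 2.35 CPM in luminal libraries (log2 fold change -4.48 ± 1.18). Tnf, higher in luminal cells, stood at 0.619, 2.52 and 1.11 CPM in basal and 7.86, 12.8 and 14.6 CPM in luminal libraries (log2 fold change 3.04 ± 0.53). Tnfsf11, the RANK ligand made by hormone-sensing cells, was not called, with 0, 1.01 and 0 CPM in basal and 0.823, 0.213 and 51.6 CPM in luminal libraries (log2 fold change 5.61 ± 2.37). Its luminal RNA came almost wholly from replicate 3. For these genes, called ones only, adjusted p spanned 1.13e-05 to 0.0119.

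Hormones and neuropeptides had 6 of 16 tested members higher in basal and 4 higher in luminal libraries, at a median log2 fold change of -2.12. Stc2, stanniocalcin 2, came to 5.72, 6.84 and 6.33 CPM in basal and 1800, 683 and 799.8 CPM in luminal libraries (log2 fold change 7.44 ± 0.77). Apoe, the lipid carrier apolipoprotein E, measured 4189, 3604 and 3828 CPM in basal and 67.2, 75.3 and 97.7 CPM in luminal libraries (log2 fold change -5.60 ± 0.83). Pthlh, parathyroid hormone-related protein, lay at 10.3, 14.5 and 4.96 CPM in basal and 0.299, 0.284 and 0.381 CPM in luminal libraries (log2 fold change -4.90 ± 0.61). The urocortin gene Ucn2 stood at 9.67, 5.19 and 3.25 CPM in basal and 0, 0 and 0.0635 CPM in luminal libraries, a basal excess in the ratio of 264 (95% interval 46.8 to 10500). Stc2 was highest in luminal replicate 1, as Areg and Aqp5 were. Insl6, a relaxin-family gene, came to 0, 2.31 and 0 CPM in basal and 8.91, 9.29 and 8.26 CPM in luminal libraries (log2 fold change 3.48 ± 1.12), a call lost in 5 of the alternatives. The calls here carried adjusted p of 3.33e-05 to 0.0288.

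Guidance ligands had 15 of 23 tested members higher in basal and 3 higher in luminal libraries, at a median log2 fold change of -3.10. Slit2 measured 172, 84.3 and 223 CPM in basal and 0.898, 1.99 and 3.30 CPM in luminal libraries (log2 fold change -6.25 ± 0.67) and Slit3 lay at 116, 101 and 136 CPM in basal and 0.524, 0.709 and 1.84 CPM in luminal libraries (log2 fold change -6.80 ± 0.76), both ligands of Robo receptors. Sema6a stood at 214, 252 and 218 CPM in basal and 3.29, 8.16 and 9.02 CPM in luminal libraries (log2 fold change -5.05 ± 0.39) and Sema4d came to 5.64, 5.83 and 6.25 CPM in basal and 92.4, 66.3 and 71.2 CPM in luminal libraries (log2 fold change 3.70 ± 0.32). Of the semaphorins called, Sema4d alone was higher in luminal cells, against 7 in basal cells. The netrin Ntn1 measured 18.2, 8.07 and 15.3 CPM in basal and 29.8, 33.3 and 76.4 CPM in luminal libraries (log2 fold change 1.75 ± 0.40), whereas Ntn4 was higher in basal cells. Secreted proteases and inhibitors had 22 of 31 tested members higher in basal and 4 higher in luminal libraries, at a median log2 fold change of -3.05. Adamts1 lay at 1138, 1604 and 1694 CPM in basal and 7.04, 8.30 and 20.4 CPM in luminal libraries (log2 fold change -6.95 ± 0.62) and Adamts18 stood at 222, 371 and 416 CPM in basal and 0, 0.568 and 1.21 CPM in luminal libraries (log2 fold change -9.08 ± 0.72), both matrix metalloproteases of one family. Mmp15, a membrane-bound metalloprotease, came to 43.3, 33.1 and 17.7 CPM in basal and 369, 341 and 385 CPM in luminal libraries (log2 fold change 3.54 ± 0.35). Wfdc18, a relative of whey acidic protein, measured 3.87, 2.95 and 1.97 CPM in basal and 30.01, 289 and 215 CPM in luminal libraries (log2 fold change 5.92 ± 0.84), with luminal replicate 1 far below the others. Adjusted p ran from 2.39e-06 to 0.00424 over the called genes given a fold here.

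**Figure D4:**
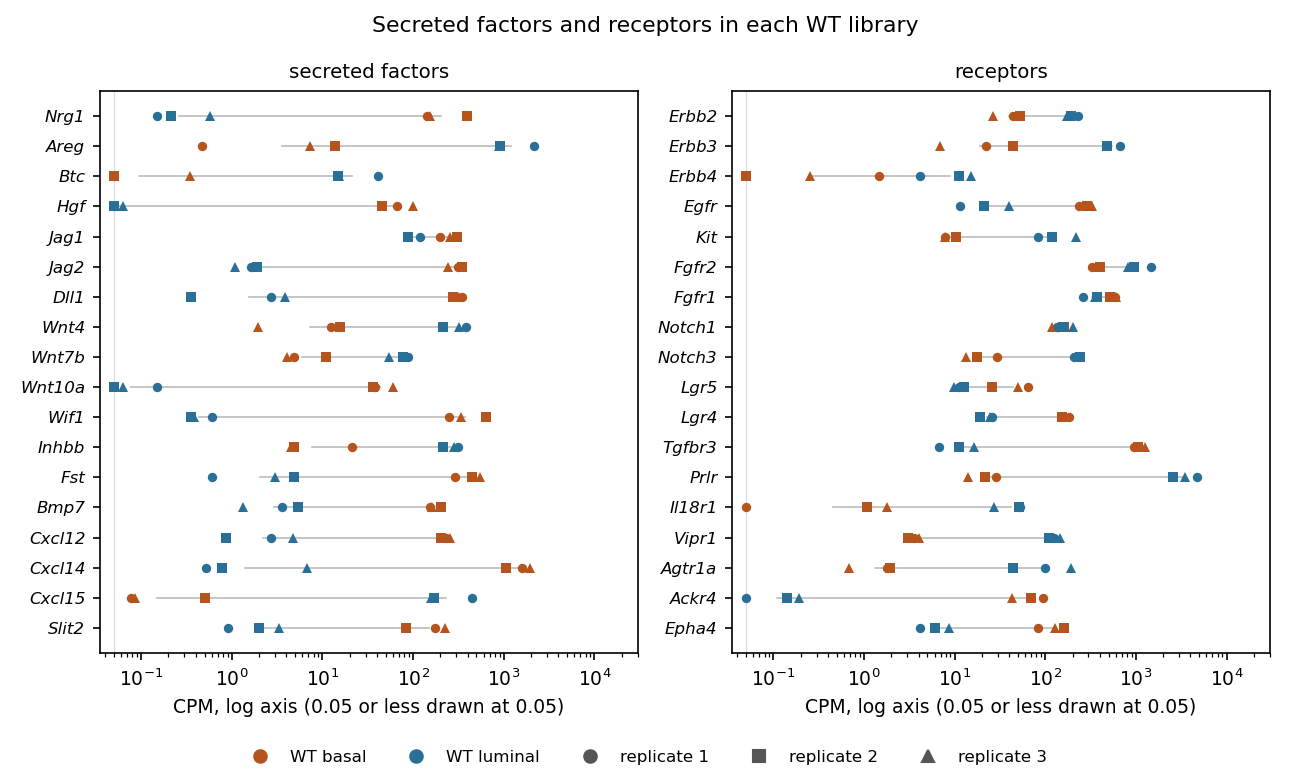
CPM of secreted factor genes (left) and receptor genes (right) in each WT library on a log axis, basal in orange and luminal in blue, with a circle, square and triangle for replicates 1, 2 and 3, values of 0.05 or less drawn at 0.05, and grey lines joining the geometric means. Nrg1, Hgf, Jag2, Dll1 and Wif1 lie to the right in basal and Areg, Wnt4 and Inhbb in luminal libraries, and Notch1 symbols of the populations are mixed.

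Receptors, like ligands, were more often higher in basal cells. Without WT basal replicate 1, 103 members were higher in basal and 33 in luminal libraries, and without both WT replicate 2 libraries 102 and 30. Receptor tyrosine kinases had 28 of 46 tested members higher in basal and 10 higher in luminal libraries, at a median log2 fold change of -1.47. Within the ERBB family Egfr lay at 234, 287 and 326 CPM in basal and 11.4, 21.2 and 39.4 CPM in luminal libraries (log2 fold change -3.55 ± 0.51), while Erbb2 stood at 44.5, 52.6 and 26.2 CPM in basal and 229, 191 and 174 CPM in luminal libraries (log2 fold change 2.26 ± 0.25) and Erbb3 came to 22.2, 44.3 and 6.85 CPM in basal and 670.5, 486 and 483 CPM in luminal libraries (log2 fold change 4.48 ± 0.67). Erbb4 was low in both, with 1.47, 0 and 0.257 CPM in basal and 4.12, 11.1 and 15.1 CPM in luminal libraries (log2 fold change 4.12 ± 1.06). Egfr was thus the basal member of its family, opposite to its ligands Areg and Btc but on the side of Ereg, and Erbb3 the luminal one, opposite to its ligand Nrg1. Fgfr2, the receptor of epithelial FGF ligands, measured 329.9, 399 and 365 CPM in basal and 1460, 954 and 816 CPM in luminal libraries (log2 fold change 1.56 ± 0.29) and Fgfr1 lay at 582, 512 and 604 CPM in basal and 262, 371 and 352 CPM in luminal libraries (log2 fold change -0.79 ± 0.19). The ephrin receptors Epha4, with 84.1, 160.1 and 129 CPM in basal and 4.19, 6.03 and 8.70 CPM in luminal libraries (log2 fold change -4.30 ± 0.43), and Ephb1, with 41.99, 27.01 and 88.7 CPM in basal and 0, 0 and 0.318 CPM in luminal libraries (log2 fold change -8.74 ± 0.79), were basal, as were 28 members of the list in all. The adjusted p-values of these called genes lay between 9.01e-06 and 0.00973.

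Wnt, Notch, hedgehog and TGF-beta receptors had 21 of 38 tested members higher in basal and 6 higher in luminal libraries, at a median log2 fold change of -1.02. The R-spondin receptors Lgr4 and Lgr5 stood at 183, 153 and 161 CPM in basal and 25.5, 19.2 and 24.8 CPM in luminal libraries (log2 fold change -2.83 ± 0.19) and 63.95, 25.9 and 49.8 CPM in basal and 11.1, 12.6 and 9.72 CPM in luminal libraries (log2 fold change -2.06 ± 0.31). Procr, a marker proposed for basal stem cells, came to 11.4, 9.22 and 12.6 CPM in basal and 1.20, 0 and 0.572 CPM in luminal libraries (log2 fold change -4.22 ± 1.0). Of the frizzled receptors, Fzd4, Fzd6 and Fzd10 were higher in luminal and Fzd1, Fzd2, Fzd3, Fzd5, Fzd7, Fzd8 and Fzd9 in basal cells. Notch3 measured 29.1, 17.6 and 13.4 CPM in basal and 208, 242 and 227 CPM in luminal libraries (log2 fold change 3.49 ± 0.62). Notch1 was not called and its libraries overlapped, with 136, 159.5 and 120.1 CPM in basal and 138, 159 and 205 CPM in luminal libraries (log2 fold change 0.27 ± 0.29). Among Notch receptors Notch3 was thus higher in luminal cells, and Notch4, an endothelial Notch, in basal cells. Tgfbr3, betaglycan, lay at 943, 1055 and 1268 CPM in basal and 6.74, 11.1 and 16.5 CPM in luminal libraries (log2 fold change -6.56 ± 0.49). Bmpr1b stood at 4.79, 9.58 and 6.59 CPM in basal and 21.5, 22.8 and 32.5 CPM in luminal libraries (log2 fold change 1.87 ± 0.35). The 13 endothelial markers other than Vwf summed to 205 to 455 CPM in basal and 43.1 to 65.3 CPM in luminal libraries, and the part of endothelial cells in Notch4 was not tested. Among the called genes above, adjusted p was 7.22e-07 at the lowest and 0.00544 at the highest.

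Cytokine, hormone and TNF receptors had 13 of 45 tested members higher in basal and 10 higher in luminal libraries, at a median log2 fold change of -0.48. Beside Prlr, luminal cells were higher for Il17re, a subunit of the IL-17C receptor, with 7.42, 4.75 and 1.97 CPM in basal and 52.4, 42.6 and 46 CPM in luminal libraries (log2 fold change 3.31 ± 0.37), and Il18r1, which binds interleukin 18, with 0, 1.08 and 1.80 CPM in basal and 52.99, 51.3 and 27.2 CPM in luminal libraries (log2 fold change 5.52 ± 0.74). Basal cells were higher for Il1rap, the shared chain of the interleukin 1 receptor, with 26.99, 30.6 and 35.5 CPM in basal and 3.07, 5.96 and 7.12 CPM in luminal libraries (log2 fold change -2.52 ± 0.33), and for the neurotrophin receptor Ngfr, with 25.1, 11.96 and 18.1 CPM in basal and 0.374, 0.78 and 0.889 CPM in luminal libraries (log2 fold change -4.72 ± 0.65). Ngfr is also a Schwann cell gene, and Schwann markers summed to 562 CPM or more in basal and 168 CPM or less in luminal libraries. Sox10, which the basal lineage shares, gave 232 to 286 CPM of the basal and 56.4 to 82.5 CPM of the luminal sums. The part of Schwann cells in Ngfr was not tested. These calls had adjusted p from 2.77e-05 to 1.68e-04.

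G protein-coupled receptors had 38 of 75 tested members higher in basal and 10 higher in luminal libraries, at a median log2 fold change of -2.01. Vipr1, a receptor of vasoactive intestinal peptide, came to 3.56, 3.02 and 4.02 CPM in basal and 126, 110.5 and 147 CPM in luminal libraries (log2 fold change 5.18 ± 0.30). The angiotensin receptor Agtr1a measured 1.78, 1.95 and 0.685 CPM in basal and 98.7, 44.5 and 193 CPM in luminal libraries (log2 fold change 6.23 ± 0.76). The beta-adrenergic receptor Adrb1 lay at 4.41, 4.03 and 5.82 CPM in basal and 20.4, 22.6 and 21.8 CPM in luminal libraries (log2 fold change 2.18 ± 0.34). Ackr4, which scavenges chemokines, stood at 94.96, 69.6 and 43.2 CPM in basal and 0, 0.142 and 0.191 CPM in luminal libraries (log2 fold change -9.12 ± 0.60). The vasopressin receptor Avpr1a, a close relative of the oxytocin receptor, was at least 95-fold higher in basal cells, with no luminal read. Guidance receptors had 11 of 16 tested members higher in basal and 1 higher in luminal libraries, at a median log2 fold change of -2.26. The netrin receptors Neo1 and Unc5b came to 147, 197 and 224 CPM in basal and 51.6, 56.96 and 59.9 CPM in luminal libraries (log2 fold change -1.75 ± 0.17) and 34.5, 43.1 and 35.3 CPM in basal and 4.71, 4.54 and 4.96 CPM in luminal libraries (log2 fold change -2.99 ± 0.34), while their ligand Ntn1 was higher in luminal cells. Plxnb2, a receptor for class 4 semaphorins, measured 224, 276 and 237 CPM in basal and 509, 473 and 433 CPM in luminal libraries (log2 fold change 0.94 ± 0.15). Across the calls just given, the adjusted p was between 3.74e-07 and 4.44e-04.

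Channels and transporters showed distinct sets on each side. Without WT basal replicate 1, 117 members were higher in basal and 74 in luminal libraries, and without both WT replicate 2 libraries 112 and 69. Potassium channels had 17 of 39 tested members higher in basal and 8 higher in luminal libraries, at a median log2 fold change of -1.79. Kcnn4, the intermediate-conductance calcium-activated channel of secretory epithelia, lay at 0.851, 0.72 and 0.0856 CPM in basal and 11.8, 29.9 and 14.9 CPM in luminal libraries (log2 fold change 5.05 ± 0.57). Kcnma1, the pore of the large-conductance channel, stood at 21.2, 39.5 and 44.8 CPM in basal and 5.39, 3.40 and 3.30 CPM in luminal libraries (log2 fold change -3.12 ± 0.42), in the same direction as its subunit Kcnmb1 above. Kcnq5, a voltage-gated channel, came to 61.2, 59.8 and 64.9 CPM in basal and 0, 0.142 and 0.254 CPM in luminal libraries (log2 fold change -8.72 ± 0.48). The inward rectifier Kcnj2 measured 52.7, 29.4 and 40.4 CPM in basal and 0.823, 0.142 and 0.953 CPM in luminal libraries (log2 fold change -5.97 ± 0.59). Kcnj11, the pore that pairs with Abcc8 in the ATP-sensitive channel, lay at 0.309, 0 and 0 CPM in basal and 11.8, 15.3 and 12.8 CPM in luminal libraries (log2 fold change 6.88 ± 0.93). Both subunits of the ATP-sensitive channel were thus luminal, and both named subunits of the large-conductance channel basal. For these genes, called ones only, adjusted p spanned 2.95e-07 to 1.11e-04.

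Calcium, TRP, Piezo and purinergic channels had 18 of 46 tested members higher in basal and 11 higher in luminal libraries, at a median log2 fold change of -0.91, with 7 luminal calls without both WT replicate 2 libraries. Cacna1c, the L-type calcium channel of smooth muscle, stood at 86.1, 89.96 and 105 CPM in basal and 0.898, 0.497 and 1.72 CPM in luminal libraries (log2 fold change -6.47 ± 0.37). Cacna1d came to 58.6, 116 and 81.5 CPM in basal and 0.973, 1.84 and 1.08 CPM in luminal libraries (log2 fold change -6.03 ± 0.38). Piezo2, a mechanically gated channel, measured 8.27, 4.54 and 8.39 CPM in basal and 681, 611 and 987 CPM in luminal libraries (log2 fold change 6.75 ± 0.39). Trpc6 lay at 0.541, 1.01 and 1.11 CPM in basal and 122, 46.7 and 80.6 CPM in luminal libraries (log2 fold change 6.54 ± 0.64) and Trpm3 stood at 89.7, 168 and 146 CPM in basal and 0.599, 1.21 and 0.889 CPM in luminal libraries (log2 fold change -7.21 ± 0.62). The voltage-gated calcium channels named were basal, while the mechanically gated channel was luminal. Itpr3, an inositol trisphosphate receptor that releases stored calcium, came to 120.0, 196 and 149 CPM in basal and 339, 421 and 329 CPM in luminal libraries (log2 fold change 1.23 ± 0.19). Its relative Itpr1 measured 259, 260.1 and 320.0 CPM in basal and 162, 142 and 185 CPM in luminal libraries, higher in basal cells. The calls here carried adjusted p of 3.59e-07 to 3.17e-04.

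Sodium, chloride and water channels had 21 of 58 tested members higher in basal and 16 higher in luminal libraries, at a median log2 fold change of -0.74. Scnn1a, the alpha subunit of the epithelial sodium channel, lay at 5.72, 11.7 and 10.9 CPM in basal and 298, 207 and 220.5 CPM in luminal libraries (log2 fold change 4.68 ± 0.41). Clcn3, a chloride-proton exchanger, stood at 26.7, 24.3 and 22.1 CPM in basal and 121, 128 and 124 CPM in luminal libraries (log2 fold change 2.35 ± 0.16). Clic6 came to 2.32, 1.30 and 0.685 CPM in basal and 53.5, 31 and 101 CPM in luminal libraries (log2 fold change 5.42 ± 0.63). These join Aqp5 as luminal genes of salt and water movement. Scn7a, a sodium channel relative that senses sodium, measured 596, 178 and 558 CPM in basal and 0.374, 0.497 and 1.65 CPM in luminal libraries (log2 fold change -8.99 ± 0.83). The gap junction gene Gja1, connexin 43, lay at 725, 674 and 921 CPM in basal and 10.8, 20.1 and 30.8 CPM in luminal libraries (log2 fold change -5.23 ± 0.43). Gjc1 stood at 10.7, 7.35 and 6.59 CPM in basal and 0.0748, 0 and 0 CPM in luminal libraries, a basal excess in the ratio of 356 (95% interval 63.4 to 14100). Gjb2, connexin 26, was higher in luminal cells. Adjusted p ran from 1.04e-06 to 4.58e-05 over the called genes given a fold here.

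Ion pumps and exchangers had 17 of 53 tested members higher in basal and 12 higher in luminal libraries, at a median log2 fold change of -0.29. Slc12a2, the sodium-potassium-chloride cotransporter of secretory epithelia, came to 90.5, 114 and 76.2 CPM in basal and 4734, 1474 and 2219 CPM in luminal libraries (log2 fold change 4.91 ± 0.62). Its relative Slc12a4, which moves potassium and chloride outward, measured 53.6, 46.3 and 53.4 CPM in basal and 0.673, 0.426 and 1.33 CPM in luminal libraries (log2 fold change -5.94 ± 0.53). Import and export cotransporters thus stood on opposite sides. The sodium pump beta subunits divided, with 3.40, 7.13 and 2.31 CPM in basal and 97.2, 117 and 116 CPM in luminal libraries (log2 fold change 4.67 ± 0.43) for Atp1b1 and 147, 137 and 122 CPM in basal and 49.7, 30.9 and 34.6 CPM in luminal libraries (log2 fold change -1.82 ± 0.19) for Atp1b3. The proton pump subunit Atp6v1b1 lay at 2.40, 1.01 and 1.88 CPM in basal and 59.8, 48.7 and 121 CPM in luminal libraries (log2 fold change 5.44 ± 0.50). The calcium pump Atp2b4 stood at 55.5, 112 and 30.98 CPM in basal and 2.40, 2.62 and 2.73 CPM in luminal libraries (log2 fold change -4.68 ± 0.47), and Atp2b2, the calcium pump of milk secretion, was low and not called, with 1.08, 0.72 and 0.171 CPM in basal and 0.524, 0.78 and 1.78 CPM in luminal libraries (log2 fold change 0.64 ± 0.85). The sodium-calcium exchanger Slc8a1 had a count ratio of 777 (95% interval 215 to 6420) in favour of basal cells. The adjusted p-values of these called genes lay between 6.50e-06 and 1.21e-04.

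Glucose, amino acid, lactate and peptide transporters had 32 of 57 tested members higher in basal and 11 higher in luminal libraries, at a median log2 fold change of -1.61. Slc5a5, the sodium-iodide symporter that loads milk with iodide, came to 5.26, 0.432 and 3.00 CPM in basal and 775, 233 and 348 CPM in luminal libraries (log2 fold change 7.29 ± 1.17). Slc2a4, the insulin-responsive glucose transporter of muscle and fat, measured 42.5, 54.9 and 60.5 CPM in basal and 0.299, 1.21 and 0.762 CPM in luminal libraries (log2 fold change -6.10 ± 0.38). Of the adipocyte markers, Fabp4 and Lep were tested, and both were also higher in basal libraries. Fabp4 had 99.1, 55.5 and 195 CPM in basal and 6.51, 0.78 and 6.74 CPM in luminal libraries. Lep had 1.62, 1.59 and 1.46 CPM in basal and 0, 0 and 0 CPM in luminal libraries. Adipoq, Plin1, Cidec and Cfd were at most 1.16 CPM in every library. The part of adipocytes in Slc2a4 was not tested. Slc2a1, the general glucose transporter, lay at 218, 154 and 290.5 CPM in basal and 137, 154 and 135 CPM in luminal libraries (log2 fold change -0.64 ± 0.20), and its call was lost in 7 of the alternatives. Slc16a1, a lactate carrier, stood at 108, 61.5 and 109 CPM in basal and 28.6, 18.2 and 19 CPM in luminal libraries (log2 fold change -2.08 ± 0.24). The taurine carrier Slc6a6 came to 345, 444 and 490.2 CPM in basal and 81.05, 71.7 and 85.8 CPM in luminal libraries (log2 fold change -2.42 ± 0.18). The glutamine carrier Slc38a1 was luminal, with 22.8, 18.4 and 15.5 CPM in basal and 153, 169.5 and 164 CPM in luminal libraries (log2 fold change 3.10 ± 0.27). Metal, nucleoside, vitamin, organic ion and lipid transporters had 26 of 75 tested members higher in basal and 22 higher in luminal libraries, at a median log2 fold change of -0.23. The lipid pumps Abca3 and Abcg1 measured 15.2, 9.87 and 14.6 CPM in basal and 184, 154 and 141 CPM in luminal libraries (log2 fold change 3.59 ± 0.25) and 9.28, 8.07 and 8.21 CPM in basal and 53.4, 68.5 and 33.9 CPM in luminal libraries (log2 fold change 2.61 ± 0.27). The phosphate carrier Slc20a2 lay at 48.2, 45.4 and 53.6 CPM in basal and 15.5, 16.1 and 21.9 CPM in luminal libraries (log2 fold change -1.46 ± 0.20). Slc44a4, of the choline transporter-like family, stood at 0.155, 0.36 and 0 CPM in basal and 73.04, 33.3 and 32.5 CPM in luminal libraries (log2 fold change 7.94 ± 0.69). Among the called genes above, adjusted p was 4.91e-07 at the lowest and 0.0276 at the highest.

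**Figure D5:**
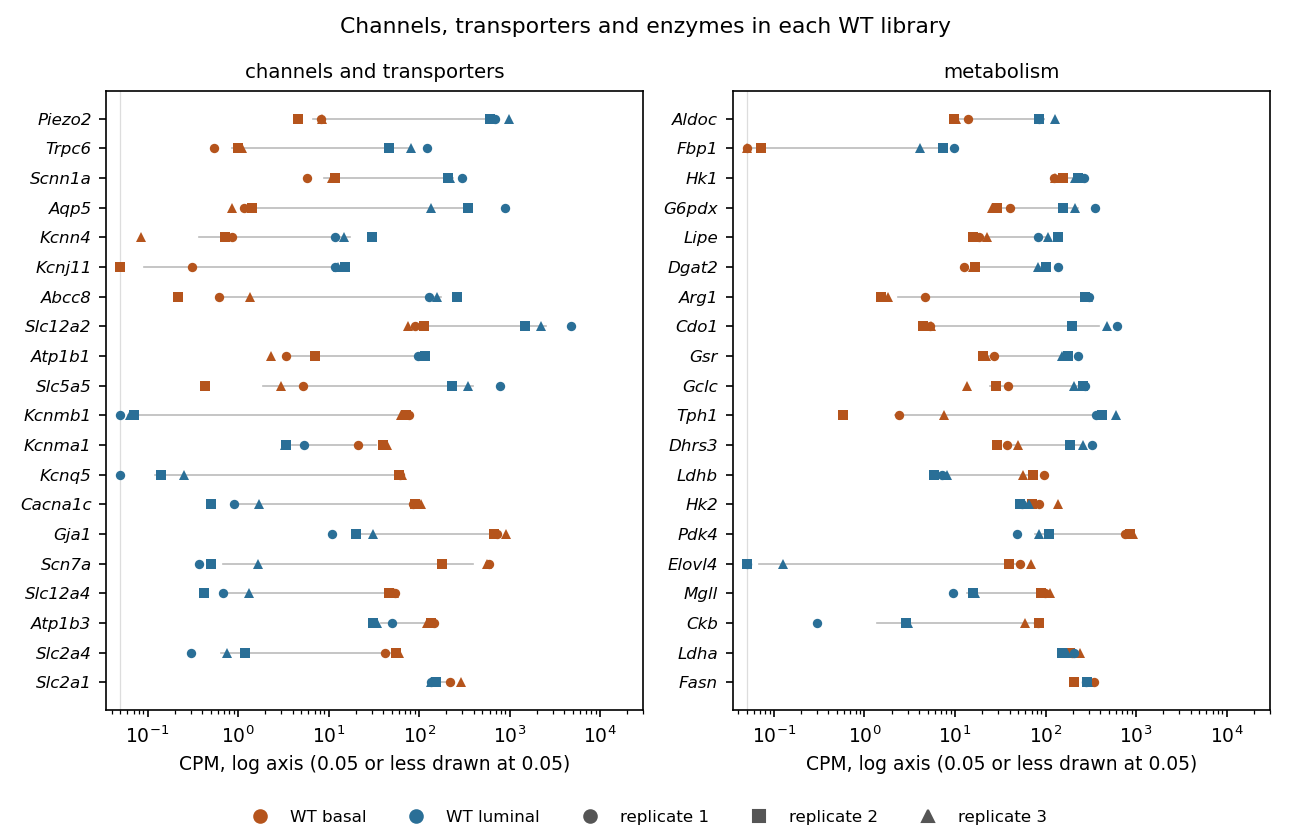
CPM of channel and transporter genes (left) and metabolic genes (right) in each WT library on a log axis, basal in orange and luminal in blue, with a circle, square and triangle for replicates 1, 2 and 3, values of 0.05 or less drawn at 0.05, and grey lines joining the geometric means. Aqp5, Slc12a2, Piezo2 and Arg1 lie to the right in luminal and Cacna1c, Kcnq5, Elovl4 and Ckb in basal libraries, and Fasn and Ldha show the populations mixed.

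The metabolic calls were recounted with libraries left out. Without WT basal replicate 1, 60 members were higher in basal and 84 in luminal libraries, and without both WT replicate 2 libraries 50 and 72. Glycolysis, lactate and glycogen genes had 10 of 49 tested members higher in basal and 17 higher in luminal libraries, at a median log2 fold change of 0.16. Hexokinases, which commit glucose to the cell, divided, with 125, 155 and 129 CPM in basal and 265, 227 and 209.6 CPM in luminal libraries (log2 fold change 0.78 ± 0.15) for Hk1 and 84.2, 70.3 and 137 CPM in basal and 55.5, 52.2 and 65.8 CPM in luminal libraries (log2 fold change -0.75 ± 0.25) for Hk2. The call of Hk2 was lost in 5 of the alternatives. Aldoc, an aldolase, came to 13.8, 9.79 and 10.3 CPM in basal and 85.2, 84.3 and 126 CPM in luminal libraries (log2 fold change 3.12 ± 0.22). Ldhb, the lactate dehydrogenase of oxidative tissues, measured 96.2, 72.02 and 55.96 CPM in basal and 7.18, 5.89 and 8.13 CPM in luminal libraries (log2 fold change -3.40 ± 0.26), whereas Ldha was not called, with 198, 186 and 242 CPM in basal and 208, 152 and 173 CPM in luminal libraries (log2 fold change -0.23 ± 0.16). Ldhd, which oxidises D-lactate, lay at 6.26, 4.90 and 7.45 CPM in basal and 38.3, 39.6 and 41.1 CPM in luminal libraries (log2 fold change 2.68 ± 0.28), with 42.2% of its exon length overlapping Znrf1. Pdk4, which shuts pyruvate dehydrogenase, stood at 754, 854 and 925 CPM in basal and 48.1, 109 and 83.7 CPM in luminal libraries (log2 fold change -3.39 ± 0.34). Fbp1, an enzyme of gluconeogenesis, came to 0, 0.072 and 0 CPM in basal and 9.65, 7.38 and 4.07 CPM in luminal libraries, a luminal excess in the ratio of 265 (95% interval 47.2 to 10500). These calls had adjusted p from 1.12e-06 to 0.0301.

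Genes of the TCA cycle and mitochondrial oxidation had 7 of 46 tested members higher in basal and 11 higher in luminal libraries, at a median log2 fold change of 0.17, and 3 of the basal calls stood without both WT replicate 2 libraries. Cpt2, which passes fatty acids into mitochondrial oxidation, measured 8.58, 6.63 and 6.25 CPM in basal and 32.8, 34.2 and 27.4 CPM in luminal libraries (log2 fold change 2.13 ± 0.26). The malic enzymes divided, with 13.9, 15.1 and 12.3 CPM in basal and 53.7, 36.7 and 45.9 CPM in luminal libraries (log2 fold change 1.72 ± 0.34) for the cytosolic Me1 and 19.2, 23.6 and 28.2 CPM in basal and 3.29, 2.13 and 3.62 CPM in luminal libraries (log2 fold change -2.97 ± 0.34) for the mitochondrial Me3. Ckb, the brain-type creatine kinase, lay at 83.3, 84.3 and 59.9 CPM in basal and 0.299, 2.84 and 3.05 CPM in luminal libraries (log2 fold change -5.18 ± 0.69), which was the largest difference among those named from this list. The luminal share here, 23.9%, lies nearer to the 18% of all genes than that of the glycolytic list. Over all genes tested 20.0% were higher in basal libraries, and 38.1% were called in either direction. Across the calls just given, the adjusted p was between 3.63e-05 and 0.00176.

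Fatty acid, triglyceride and phospholipid genes had 14 of 57 tested members higher in basal and 20 higher in luminal libraries, at a median log2 fold change of 0.26. Dgat2, which makes triglyceride, stood at 12.5, 16.8 and 15.9 CPM in basal and 138, 101 and 82.3 CPM in luminal libraries (log2 fold change 2.83 ± 0.29). Lipe, hormone-sensitive lipase, came to 18.6, 15.9 and 22.7 CPM in basal and 81.8, 136 and 106 CPM in luminal libraries (log2 fold change 2.50 ± 0.25). Mgll, monoglyceride lipase, measured 99.6, 89.3 and 112 CPM in basal and 9.58, 15.8 and 16.8 CPM in luminal libraries (log2 fold change -2.83 ± 0.36). Elovl4, which extends very long chain fatty acids, lay at 51.6, 39.5 and 69.7 CPM in basal and 0, 0 and 0.127 CPM in luminal libraries, a basal excess in the ratio of 1140 (95% interval 315 to 9410). Fasn, the fatty acid synthase of milk fat, was not called, with 344, 204 and 304 CPM in basal and 278, 286 and 292 CPM in luminal libraries (log2 fold change 0.01 ± 0.18), and its libraries overlapped. Cholesterol and steroid genes had 7 of 33 tested members higher in basal and 11 higher in luminal libraries, at a median log2 fold change of -0.03, with 4 basal calls without WT basal replicate 1 and 3 without both WT replicate 2 libraries. Hsd17b4 stood at 76.4, 80.5 and 60.2 CPM in basal and 204, 148 and 113 CPM in luminal libraries (log2 fold change 1.10 ± 0.22) and Cyp51, a step of cholesterol synthesis, came to 25.8, 37.2 and 41.8 CPM in basal and 17.3, 18.3 and 16.5 CPM in luminal libraries (log2 fold change -1.01 ± 0.20). Cyp1b1, which hydroxylates estrogens, measured 107, 174 and 232 CPM in basal and 1.95, 21.8 and 13.2 CPM in luminal libraries (log2 fold change -3.80 ± 0.76). Sc5d, another step of cholesterol synthesis, was higher in luminal cells, so that steps of the pathway differed in direction. For these genes, called ones only, adjusted p spanned 3.71e-06 to 0.00252.

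Retinoid, aldehyde and prostaglandin genes had 13 of 40 tested members higher in basal and 8 higher in luminal libraries, at a median log2 fold change of -1.18. Dhrs3, a retinal reductase, lay at 37.4, 28.8 and 49.6 CPM in basal and 324, 188 and 258 CPM in luminal libraries (log2 fold change 2.73 ± 0.24). Rdh10, which makes retinal, stood at 28.4, 48.8 and 54.3 CPM in basal and 10.6, 11.9 and 9.40 CPM in luminal libraries (log2 fold change -2.04 ± 0.28). Dhrs3 and Rdh10, of opposing steps, thus stood on opposite sides. Of the same list, Rdh5 and Rdh11 were not called, and Dhrs9 was higher in basal cells. Aldh2, the mitochondrial acetaldehyde dehydrogenase, came to 276, 265 and 249 CPM in basal and 66.8, 53.2 and 59.1 CPM in luminal libraries (log2 fold change -2.14 ± 0.15). Maob, a monoamine oxidase, measured 34.7, 69.6 and 45.8 CPM in basal and 0.599, 0.993 and 2.03 CPM in luminal libraries (log2 fold change -5.34 ± 0.51). The other monoamine oxidase, Maoa, was higher in luminal cells, with 35.7, 60.07 and 48.5 CPM in basal and 166.7, 80.02 and 78.02 CPM in luminal libraries (log2 fold change 1.17 ± 0.35). Tph1 above takes the first step to the monoamine serotonin, while Ddc, of the next step, had 0 counts in basal and 3 in luminal libraries. Glutathione, one-carbon, amino acid and polyamine genes had 18 of 73 tested members higher in basal and 18 higher in luminal libraries, at a median log2 fold change of -0.18. Arg1, which splits arginine into urea and ornithine, lay at 4.72, 1.51 and 1.80 CPM in basal and 299, 272 and 292 CPM in luminal libraries (log2 fold change 6.74 ± 0.55). Cdo1, which oxidises cysteine on the way to taurine, stood at 5.26, 4.39 and 5.48 CPM in basal and 613, 197 and 473 CPM in luminal libraries (log2 fold change 6.40 ± 0.55), while the taurine carrier Slc6a6 was basal. Gsr, glutathione reductase, came to 27.3, 20.4 and 21.8 CPM in basal and 229, 178 and 150.5 CPM in luminal libraries (log2 fold change 3.0 ± 0.26). Txnrd1, thioredoxin reductase, measured 551, 642 and 694 CPM in basal and 268, 285 and 260.4 CPM in luminal libraries (log2 fold change -1.21 ± 0.13). The calls here carried adjusted p of 9.12e-07 to 0.0198.

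The same contrast was read in the 6 MMTVRANK libraries to see whether any WT difference was particular to WT. There 6049 of 18236 genes were called (33.2%). Of the 6940 WT calls, 4941 (71.2%) were also called in the same direction, 6764 had the same sign, and Tfrc, the transferrin receptor, and RP24-392J14.2 were called in opposite directions. The difference of the lineage effect between genotypes was called for 1 gene (0.00548%), Epb41l3, with 1410 genes at an unadjusted p under 0.05. Epb41l3 belongs to the band 4.1 proteins of the membrane skeleton. It had 49.1, 86.2 and 32.8 CPM in WT basal, 24.6, 25.1 and 28.9 CPM in WT luminal, 96.1, 78.4 and 73.01 CPM in MMTVRANK basal and 3.20, 1.92 and 3.52 CPM in MMTVRANK luminal libraries. Of the 265 WT-called genes named by rule, 255 were also called in MMTVRANK mice in the same direction. Among the key members, the MMTVRANK log2 fold change was -7.84 for Trp63, -7.45 for Snai2, 7.54 for Prlr, 7.85 for Foxa1, -8.01 for Nrg1, 7.64 for Areg and -8.32 for Acta2. No difference was called for these 7 genes. With the replicate number as a block, no gene's difference between genotypes was called.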

How the data were processed

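Total RNA of sorted mammary cells was sequenced in 12 libraries. Per the submitters' processing notes, STAR 2.6.1b aligned the reads to GRCm38.p6 and Subread 1.5 assigned them. What the authors deposited is a table of raw read counts per gene symbol, made with featureCounts 1.5.2 on GENCODE M17 by largest overlap with no strand option, per the file headers, so overlapping genes on either strand cannot be told apart. It lists 53735 symbols, 15946 of them without a count.

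Groups followed the titles. Genes were kept by filterByExpr (minimum count 10, CPM 0.728), TMM-scaled, and tested by quasi-likelihood in a single model of all 12 libraries in 4 groups with edgeR 4.0.16 in R 4.3.3 (common biological coefficient of variation 0.450). Standard errors (SE) are log2 fold changes divided by the root of the F statistic. Genes with 0 counts in a population carry a bound from a floor of 3 counts, and those with 1 to 3 counts an exact 95% interval of the count ratio. The analysis was tested on simulated data.

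Genes were named by rule: the 15 largest log2 fold changes in each direction among called genes with an average log2 CPM of 3 or more, up to 3 members per list and direction with the smallest p at 5 CPM or more, both without overlap of the WT libraries, 58 genes whatever their values, and related genes called in opposite directions. That gave 273 genes, with other list members named by direction. Some of them are not reported here. Ereg, Zeb1, Twist1, Ntf3, Avpr1a, Slc8a1, Maoa, Ddc and Inhba were picked after their values were seen, as were the 13 promoter motifs. The members and lists were chosen with earlier results of these data known.

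Samples with the same number deviate together: the deviations of luminal and basal libraries from their group means correlated at 0.291, 0.168 and 0.380 for numbers 1, 2 and 3 over 9330 genes, and each luminal library correlated best with the basal library of its own number. The pairing comes from these data, not from a stated litter or animal. WT libraries were no duplicates of each other: chi-square over its degrees of freedom was at least 28.6 in every pair. Promoters are RefSeq windows on GRCm38.p6, and 7516 tested genes had none. DESeq2 1.42.0, limma 3.58.1 voom, other scalings, filters, the block, the WT libraries alone and left-out libraries were the alternatives.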

Additional observations from a re-analysis of the deposited data

Results flagged for a closer look

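Epb41l3 was the gene whose luminal minus basal difference was called as unequal between genotypes, at a difference of -3.74 on the log2 scale, MMTVRANK minus WT (adjusted p 0.042 in edgeR's quasi-likelihood test). The log2 fold change was -1.10 ± 0.31 in WT and -4.84 in MMTVRANK mice. In WT luminal libraries the gene stood at 24.6, 25.1 and 28.9 CPM, against 3.20, 1.92 and 3.52 CPM in MMTVRANK luminal libraries, with no overlap. The call was absent with voom, with the replicate block and with the filter of 50 counts. It was also absent when any MMTVRANK basal library, MMTVRANK luminal replicate 2, WT basal replicate 1 or WT luminal replicate 1 or 2 was left out.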

How the results depend on the processing

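WT calls numbered 6900 with DESeq2 size factors, 7823 with DESeq2, 7040 with voom, 7000 with no filter, 6175 with at least 50 counts in 3 libraries, 4924 in the WT libraries alone and 5322 without both WT libraries numbered 2. Leaving out 1 library at a time gave 5776 to 6898 calls, fewest without WT luminal replicate 1. The replicate block gave 7332 calls, 3464 luminal and 3868 basal (5269 in the WT libraries alone). Pairing by number over the 12 libraries added the call of Gata3 and lost that of Epb41l3 between genotypes, and it lost no named call of the main comparison. In the WT libraries alone it lost that of Slc2a1 (adjusted p 0.0978) and added that of Tnfrsf11a (log2 fold change -2.35, adjusted p 0.0195). Tested against a 2-fold change 3181 genes were called, 1173 luminal and 2008 basal, and luminal genes fell from 47.3% to 36.9% of calls. Of the WT calls 4990 (71.9%) stood without both WT libraries numbered 2.

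The count of genes whose lineage difference changed with genotype was 1, against 140 with DESeq2, 776 with no filter, 3 without both WT libraries numbered 2, and 0 with voom, with at least 50 counts and with the replicate block. Leaving out 1 library gave 0 to 7. The cause was not tested.

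Of 265 named calls, 232 stood under all 22 alternatives that gave them an adjusted p, and none of them changed sign. Voom lost those of Ctse, Dsc3, Dscam and Lum, and DESeq2 gave no adjusted p for Apoe and Lum. Among the calls lost with 1 or more WT libraries left out were those of Cbr2, Hk2, Igfbp5, Insl6, Itga2, Pde5a, Slc2a1 and Soat1. Fibroblast markers called in basal cells fell from 13 to 8 without WT basal replicate 1.

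Depth limits genes near 0 counts, for which bounds replace folds. With 3 libraries per population, sorted without a stated leukocyte step, other cells and lineage cannot be separated gene by gene, and relative values say nothing of RNA per cell. No alternative chosen after seeing the data was added to the tests across genes.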

Other observations

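Among basal libraries the sum of fibroblast markers and the summed markers of the lineage did not move together: basal replicate 1 held 3378 CPM of fibroblast markers and 21080 CPM of the 8 basal markers, while replicate 3 held 422 and 21200 CPM. Lum, a fibroblast proteoglycan, measured 85.5, 6.41 and 5.65 CPM in the basal libraries and at most 0.826 CPM in the luminal ones, and its call was lost with voom (adjusted p 0.0873). Vwf, the endothelial clotting protein, was the endothelial marker higher in luminal cells, at 93.0, 182 and 233 CPM against 12.2, 12.2 and 10.9 CPM in basal libraries, while Kdr and Pecam1, defining endothelial receptors, were higher in basal cells.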
